A study of Mus musculus with 7 samples.

Results

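In mouse liver, 649 autosomal regions of intermediate length carried H3K27me3 islands whose score per unit length was high in every animal studied. H3K27me3, trimethylation of lysine 27 on histone H3, was profiled by ChIP-seq, in which sheared chromatin is pulled down with an antibody and sequenced, in individual livers of male CD-1 mice, an outbred stock, obtained at 7 weeks of age. The 3 vehicle mice were injected with DMSO in corn oil, and the 4 TCPOBOP mice with TCPOBOP at 3 mg/kg; all livers were collected 27 h later. TCPOBOP is a ligand of the mouse constitutive androstane receptor, and no genetic change was given for any group. Each list of islands came from 1 animal, so the spread between lists holds both biological and technical variation.

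The regions were chosen from the lists themselves. Islands of the 7 lists that overlapped or touched were merged, which gave 17394 regions, of which 6624 had an island in all 7 lists. On the autosomes, 5305 of the latter were at least 30 kb and under 200 kb long and are called mid-sized here. The density of a region in a list was the summed island score divided by the number of 400-bp windows in those islands. The 649 dense regions, 12.2% of the mid-sized, were at or above the 75th percentile of density in each of the 7 lists. The other 4656 mid-sized regions served for comparison, and 234 of them that were at or below the 25th percentile in every list are called low-density. All coordinates are in build mm9, 1-based.

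H3K27me3 is laid down by Polycomb repressive complex 2, whose catalytic subunit is EZH2 or EZH1 and whose EED subunit binds the finished mark, a step by which the mark can spread along chromatin. In adult tissues the mark is known for covering silent developmental genes, often over many kilobases around CpG-rich promoters, and Polycomb repressive complex 1 can read it through CBX proteins. A bulk liver sample holds hepatocytes and several other cell types, so a strong mark in fewer cells and a weaker mark in more cells cannot be told apart in these data. The regions are given by position only, because no mm9 gene annotation was used.

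Density was used to choose the regions and is described without a test. It was also not compared between treatments, because an island's score grows with the depth of its library, and the lists give no read numbers. The median density of the dense regions was 4.69, 7.95 and 5.65 score units per window in vehicle livers 1 to 3. It was 5.30, 7.43, 5.55 and 6.08 in TCPOBOP livers 1 to 4. The livers numbered 2 in each group thus stood above the other 5. In the other mid-sized regions the median density ran only from 2.63 in vehicle liver 1 to 3.14 in TCPOBOP liver 2. The ratio of the medians was therefore 2.54 in vehicle liver 2 and 2.37 in TCPOBOP liver 2, against 1.78 to 2.06 in the remaining livers.

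The same pair of livers stood apart region by region. Both numbered 2 held the highest densities of a dense region in 479 regions (73.8%). Vehicle liver 1 held the lowest density in 461 regions (71.0%). The mean density in the livers numbered 2 was a median of 1.43 times that in the other 5, from 0.802 to 2.48 times, and was below the others in 12 regions. Outside the dense regions these 2 livers had less cover than most: in the low-density regions 48.9% and 49.5% of the length lay under islands in them, against 59.0% to 67.5% in the other 5. Their part in the results below was not tested beyond the values given without them.

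**Figure D1:**
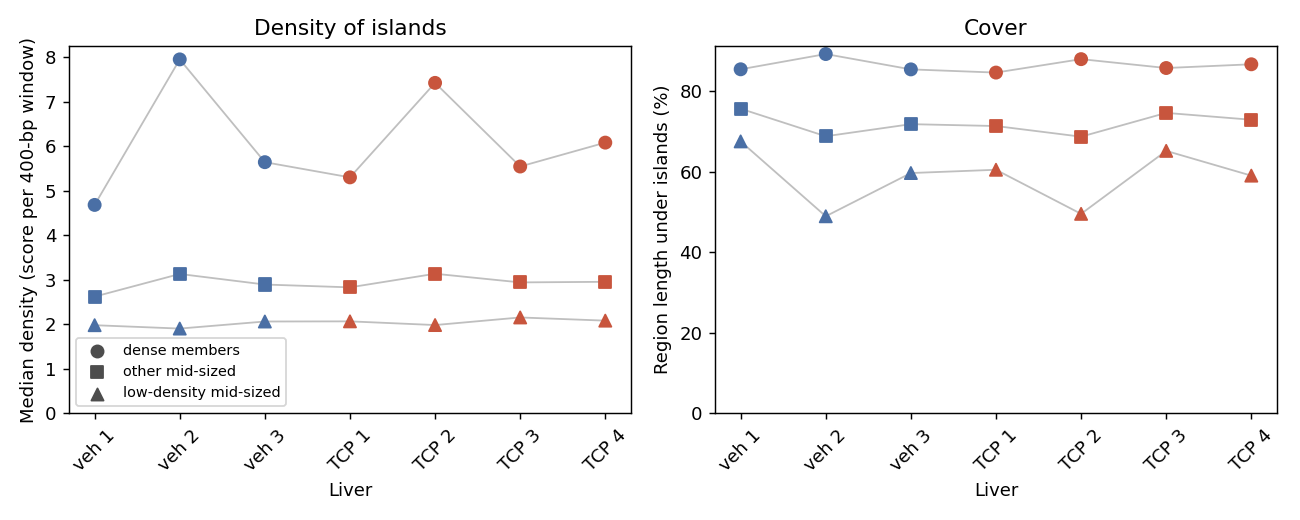
Median island density (left, score units per 400-bp window) and share of the summed region length under islands (right, %) in each of 7 livers, for 649 dense, 4656 other and 234 low-density mid-sized regions. Vehicle livers are blue and TCPOBOP livers red. Dense regions peak in density in the livers numbered 2, at 7.95 and 7.43, where cover of the low-density regions is lowest.

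The 75th percentile that a region had to reach was 3.35 in vehicle liver 1 and 4.87 in vehicle liver 2, with the other 5 lists between these. Of the mid-sized regions, 2351 reached it in at least 1 list, 571 in 1 list only and 185 in 6 lists. Just inside the limit lay chr6:100632401-100686400, chr5:24099601-24182000 and chr8:125244801-125304000, whose smallest percentiles were 75.005, 75.1 and 75.1. Just outside lay chr2:32428001-32460400, chr8:24483601-24584800 and chr9:41018001-41118800, each with a smallest percentile of 74.9. The limit therefore cuts through a continuous range of densities.

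Choosing the regions without a given list and then reading them in that list used measurements that had no part in the choice. Regions chosen on 6 lists were at or above the 75th percentile of the list left out in 93.4% of cases for vehicle liver 1, the lowest, and 97.6% for TCPOBOP liver 4, the highest. Mid-sized regions not chosen reached it in 13.6% to 14.4%. Chosen on the 3 vehicle lists alone, 934 regions qualified, and 91.3% to 93.4% of them reached the percentile in each TCPOBOP list. Chosen on the 4 TCPOBOP lists, 906 qualified, and 89.8% to 92.5% reached it in each vehicle list. High density was thus found in the same places in livers of the other treatment.

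Across the 5305 mid-sized regions, Spearman's rho of density between 2 lists was 0.691 to 0.857, and across the 649 dense regions 0.573 to 0.805. These are correlations across regions, which are not replicates and share the depth and background of each list. The highest value joined vehicle liver 2 and TCPOBOP liver 2.

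More of the length of the dense regions was under islands in all livers than in the other mid-sized regions, at similar region lengths. They spanned 53.7 Mb, with a median length of 68.8 kb, close to the 70.0 kb of the other mid-sized regions and shorter than the 87.8 kb of the low-density ones. In single lists they took up 7.61% to 8.91% of all base pairs under islands and 12.9% to 17.7% of all score. Cover and island shape come from the same lists as density, so the contrasts with other mid-sized regions that follow are descriptions.

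Windows of the dense regions that lay under islands in all 7 livers made up 68.1% of their length, against 33.8% in the other mid-sized and 9.98% in the low-density regions. For a single region this shared core had a median of 68.7% of the length when dense, 30.3% when other and 7.14% when low-density. The core reached at least 90% in 43 dense regions (6.63%) and in 13 of the others (0.279%). At least 80% of the length was under islands in every liver in 248 dense regions (38.2%) and in 290 others (6.23%).

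Region ends varied less between livers than in the other classes, although many still differed. The outermost island end differed between the 7 livers by a median of 6.8 kb at an end of a dense region, 16.0 kb at an end of another mid-sized region and 31.8 kb at an end of a low-density one. All 7 livers put the end within 1.2 kb of each other at 16.8% of the 1298 ends of dense regions, 5.90% of the others' ends and 0.214% of the low-density ends. The end differed by 10 kb or more at 36.2%, 68.9% and 92.7% of ends. A single unbroken island was called in every liver in 206 dense regions (31.7%) and in 672 of the others (14.4%).

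Cover was lowest at the ends and higher toward the middle. In the outermost 2 kb of the dense regions 35.2% to 48.1% of positions were under islands, depending on the liver. At 4 to 8 kb from an end it was 71.1% to 81.3%, and at 12 to 15 kb 88.2% to 92.0%. In the other mid-sized regions the outermost 2 kb had 32.0% to 39.4% and the stretch at 12 to 15 kb 72.4% to 78.8%. A region begins where the first list has an island, so low cover at its very end follows in part from the merging. At 12 to 15 kb, 71.6% of windows in dense regions and 37.3% in the others were under islands in all 7 livers.

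**Figure D2:**
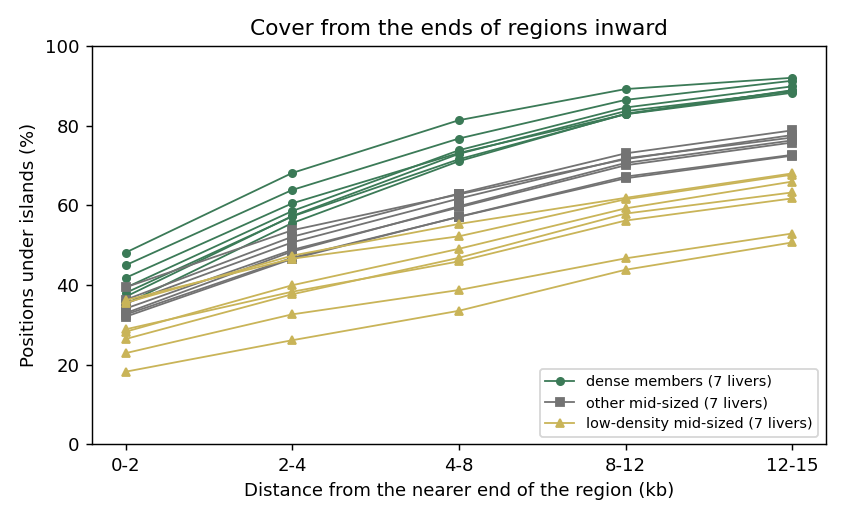
Share of positions under islands (%) against the distance from the nearer end of the region (kb), 1 line for each of 7 livers, in dense, other and low-density mid-sized regions. At 12 to 15 kb the 7 lines of the dense regions lie between 88.2% and 92.0%, above all lines of the other classes.

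These measures varied with length. Of the dense regions, 272 were under 60 kb, 174 were 60 kb to under 100 kb and 203 were 100 kb or longer, which is 13.3%, 9.78% and 13.7% of the mid-sized regions of those lengths. The median core was 60.6% in the shortest class and 70.8% and 73.6% in the longer ones. In the other mid-sized regions it was 30.7%, 26.3% and 34.6%. A single island in every liver was seen in 61.4% of the shortest dense regions, in 17.2% of the middle class and in 4.43% of the longest.

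Where a dense region was broken, the breaks were short. The 7 lists held 2123 gaps between islands inside dense regions, with a median of 3.2 kb, and 11.6% of these gaps were 10 kb or wider. SICER had joined islands across gaps of up to 2400 bp, and the smallest gap in the lists was 2.8 kb. In the other mid-sized regions the median gap was 4.0 kb with 25.3% at 10 kb or wider, and in the low-density regions 5.6 kb with 40.0%.

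A minority of dense regions varied widely between livers. Cover was below 50% in at least 1 liver in 76 of them, while 175 were fully covered in at least 1 liver. The largest spread was at chr8:73365601-73395600, which had 18.7%, 85.3% and 38.7% of its length under islands in vehicle livers 1 to 3 and 32.0%, 100%, 41.3% and 84.0% in TCPOBOP livers 1 to 4. The next were chr17:23731601-23807200, with 23.8% to 98.9%, and chr8:126019201-126061200, with 21.0% to 91.4%. In the first and last of these the liver with most cover was TCPOBOP liver 2, and in the second vehicle liver 2.

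The densest regions were short. By mean percentile of density over the 7 lists, 9 of the first 10 were 30.8 to 58.0 kb long. First came chr9:62976401-63018800, 42.4 kb, with densities of 11.1, 19.96 and 15.4 in vehicle livers and 12.8, 21.2, 11.96 and 18.6 in TCPOBOP livers. Its cover was 71.7%, 100% and 66.0% with vehicle and 65.1%, 77.4%, 65.1% and 67.9% with TCPOBOP. Only vehicle liver 2 filled the merged region, and the groups overlapped.

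The second region, chr1:74804401-74862400, was covered at 91.7% to 97.9% by 1 island in each liver, and its density ran from 8.90 in vehicle liver 1 to 17.9 in TCPOBOP liver 2. The third, chr14:122858801-122901200, had the most even outline of the 10, with a cover of 99.1%, 98.1% and 98.1% in vehicle and 99.1%, 99.1%, 97.2% and 96.2% in TCPOBOP livers. Its ends differed by 0.4 kb and 1.6 kb over all 7 livers, and 95.3% of it lay under islands in every liver. The fourth, chr4:154306801-154337600, was less even: cover was 93.5% in vehicle liver 2 and 100% in TCPOBOP liver 4 but 50.6% to 59.7% in the other 5. Its left end differed by up to 15.2 kb between livers and its right end by 0.4 kb.

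The fifth region differed from the rest of the 10 in length and in pattern. The region chr1:173454801-173554000 was 99.2 kb long. Its densities were 13.7, 13.03 and 14.7 in vehicle livers and 15.4, 14.1, 13.2 and 15.4 in TCPOBOP livers, with no rise in the livers numbered 2. It was made of 1 to 3 islands depending on the liver, and 78.6% to 99.6% of it was covered.

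The remaining 5 were at chr11:98161201-98216800, chr15:98594001-98646400, chr4:22396401-22435600, chr4:109634401-109682400 and chr7:25711201-25755200. In each of these 5, vehicle liver 2 had the highest density, from 15.4 to 22.7. Cover was most even at chromosome 15, at 89.3% to 95.4%, and least even in the second of the chromosome 4 regions, at 65.0% to 94.2%.

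**Figure D3:**
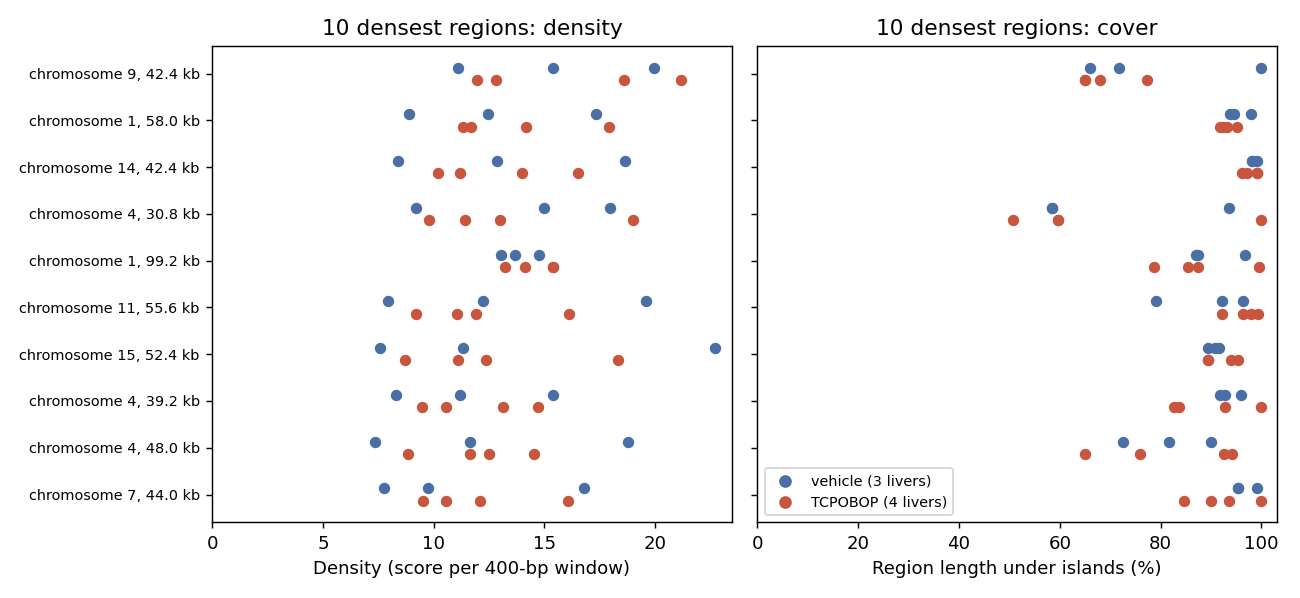
Density (left, score units per 400-bp window) and cover (right, % of region length) of the 10 densest regions, 1 point per liver, 3 vehicle livers in blue and 4 TCPOBOP livers in red. The 99.2-kb region of chromosome 1 has the narrowest range of density, at 13.03 to 15.4.

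At the other end of the length range, the widest dense region was chr7:144372001-144569200, 197.2 kb, of which 96.6% to 99.8% was covered by 1 or 2 islands. The region at chr12:57465201-57660400, 195.2 kb, was covered at 89.5% to 100% by 1 or 2 islands. The third, also 195.2 kb, was chr18:37804401-37999600, which was split into 2 to 5 islands and covered at 83.8% to 96.1%.

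A few dense regions kept a density pattern of their own across livers. They were picked after their values were seen, as the 3 with the largest SD of density relative to the list's median over dense regions. At chr10:21998401-22033200 density was 9.58, 6.39 and 17.8 in vehicle livers 1 to 3 and 7.45, 24.9, 10.1 and 5.19 in TCPOBOP livers 1 to 4. Cover there was 92.0% to 100%, so the difference lay in the score and not in the outline. At chr10:79800801-79838000 the density of 14.99 in vehicle liver 1 came from a cover of 8.60%, and the other livers had 5.11 to 10.3 at 41.9% to 84.9% cover. At chr8:111190801-111226400 vehicle liver 1 had 12.5 at a cover of 21.3%, and TCPOBOP livers 1 and 4 had 4.25 and 4.53 at 95.5% and 96.6%. In both of the last regions the liver with the least cover had the highest density.

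**Figure D4:**
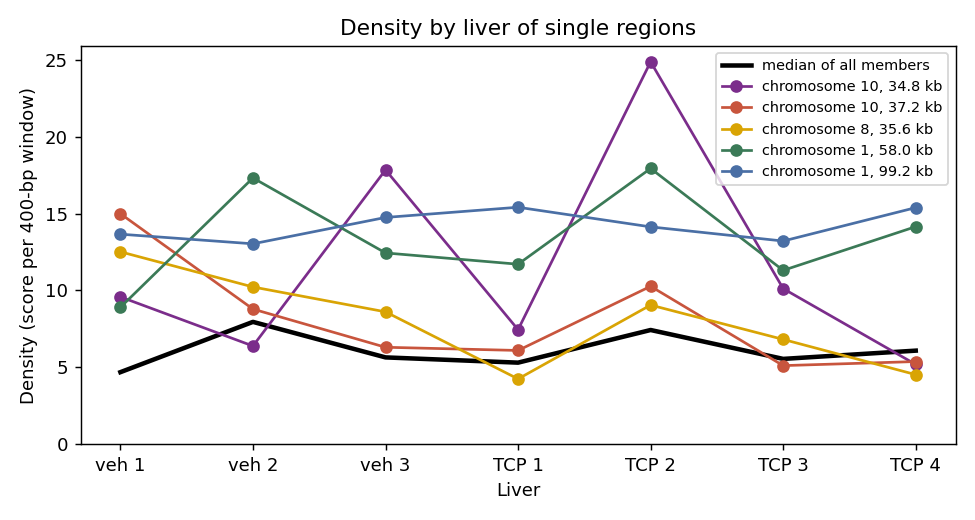
Density (score units per 400-bp window) of 5 single dense regions in each of 7 livers, with the median of all 649 dense regions in black. The 34.8-kb region of chromosome 10 runs from 5.19 to 24.9 and peaks in vehicle liver 3 and TCPOBOP liver 2, whereas the 99.2-kb region of chromosome 1 stays between 13.03 and 15.4.

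Dense regions were unevenly spread over the chromosomes and lay near each other. They made up 20.4% of the mid-sized regions of chromosome 11 (67 of 329), 18.9% at chromosome 19 (33 of 175), 17.5% at chromosome 4 (50 of 286) and 17.0% at chromosome 7 (59 of 348). The lowest shares were 6.0% at chromosome 18 (12 of 200), 6.59% at chromosome 1 (29 of 440), 6.82% at chromosome 3 and 6.95% at chromosome 16. In bins of 5 Mb the most dense regions, 12 each, lay at 95 to 100 Mb of chromosome 11, among 21 mid-sized regions, and at 40 to 45 Mb of chromosome 19, among 20.

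The nearest other dense region was a median of 382.4 kb away from a dense region and 1366.4 kb away from another mid-sized region. Within 100 kb there was a dense region for 193 dense regions (29.7%) and for 433 others (9.30%). Of the merged regions directly next to a dense region, 15.3% were dense themselves, against 3.95% next to other mid-sized and 0.214% next to low-density regions. In 80 runs of adjacent merged regions, 179 dense regions (27.6%) followed each other without another region between them. The longest run held 4, at chr2:31473201-31829200. Directly adjacent regions of 200 kb or more with islands in all 7 lists were 6.32% of the neighbours of dense regions, 4.76% of those of the others and 3.63% of those of low-density regions.

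The comparison of TCPOBOP with vehicle asked whether the receptor's ligand changed how much of these regions carried the mark. Cover was the measure. The group labels had no part in the choice of regions, but every liver of both groups had to reach the density limit. A region that fell below the limit in either group was thus left out beforehand. Whether treatment moved regions across the limit was not tested, and the comparison holds only for regions dense in both groups. The windows under islands are also the divisor of density, so cover entered the choice. The depth of each list is unknown, and its effect on cover was not tested. Dense regions were covered at 85.4%, 89.2% and 85.4% in vehicle livers 1 to 3 and at 84.6%, 87.9%, 85.7% and 86.6% in TCPOBOP livers 1 to 4. The groups overlapped, and the highest liver of each was the one numbered 2. The means were 86.7 ± 2.19% (SD, n = 3) and 86.2 ± 1.41% (SD, n = 4). The difference of -0.439 percentage points was smaller than the spread between livers, with a 95% interval of -4.60 to 3.53 (two-sided exact permutation test over 35 splits, p = 0.743; the smallest p it allows is 0.0286). Without vehicle liver 2 the difference was 0.826 points, and without both livers numbered 2 it was 0.259.

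The other mid-sized regions were covered at 75.6%, 68.8% and 71.8% with vehicle and 71.3%, 68.7%, 74.6% and 72.9% with TCPOBOP. Dense regions exceeded them by 9.78, 20.4 and 13.6 points in vehicle livers and by 13.3, 19.2, 11.1 and 13.8 points in TCPOBOP livers. This excess was largest in the livers numbered 2 of both groups. It differed between the treatments by -0.243 points (95% interval -9.27 to 11.2, two-sided exact permutation p = 0.943), so no difference in response between dense and other mid-sized regions was detected. The interval is wide, and without vehicle liver 2 the value was 2.66 points. Mid-sized regions that reached the density limit in some livers only were counted among the others, which also limits this contrast.

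The number of islands per dense region was higher with TCPOBOP by an amount that did not pass the test. Dense regions held a mean of 1.36, 1.44 and 1.45 islands in vehicle livers and 1.56, 1.47, 1.499 and 1.49 in TCPOBOP livers, and every TCPOBOP liver lay above every vehicle liver. The difference was 0.0835 islands per region (95% interval -0.00103 to 0.218, two-sided exact permutation p = 0.0571), and vehicle liver 1 and TCPOBOP liver 1 were the extremes. Without vehicle liver 1 it was 0.0539. The means of the other mid-sized regions differed in the same direction and by more. They were 1.68 ± 0.145 islands in vehicle livers (SD, n = 3) and 1.86 ± 0.0869 in TCPOBOP livers (SD, n = 4). There the groups overlapped, with 1.776 in vehicle liver 3 and 1.774 in TCPOBOP liver 2, and vehicle liver 1 was lowest at 1.51. The direction of the means was thus not particular to dense regions. The whole lists held 14167, 16301 and 17852 islands with vehicle and 20550, 16481, 18512 and 18399 with TCPOBOP, with overlap between the groups. The part of that in the count per region was not tested.

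The widest island held 89.9%, 88.9% and 88.0% of a dense region's cover on average in vehicle livers and 86.7%, 88.4%, 87.7% and 87.9% in TCPOBOP livers. The difference was -1.28 points (95% interval -3.63 to 0.356, two-sided exact permutation p = 0.114). It was -0.802 points without vehicle liver 1. In the other mid-sized regions the 3 vehicle livers averaged 80.6 ± 3.24% (SD) and the 4 TCPOBOP livers 76.8 ± 1.80% (SD). The direction was again the same and the difference of means larger. The groups overlapped there too, with 78.3% in vehicle liver 3 and 78.8% in TCPOBOP liver 2. When the 20% of islands with the lowest score were left out of each list, the regions were merged and chosen anew, which gave 544 dense regions. In that set both measures reached the smallest p the exact permutation test allows, 0.0286, at 0.0732 islands and -1.48 points. Neither was computed for the other mid-sized regions at that setting, so these values cannot be called particular to dense regions.

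Region by region, no change in cover passed the test. All 649 dense regions were among the 13988 regions fitted with limma. None had an adjusted p under 0.05 (Benjamini-Hochberg over all regions, lowest 1), nor had any of the 13988 (0% called, lowest adjusted p 0.730). On simulated data for the same 3 and 4 livers the fit called no loss after adjustment, even large ones. A count of 0 therefore does not show that cover was the same. An unadjusted p under 0.05 was reached by 16 dense regions (2.47%), of which 9 gained and 7 lost cover on average with TCPOBOP, against 3.87% of all regions (2.42% more and 1.45% less). The share of dense regions was thus not above the background, and it was close to the 2.75% (128) of the other mid-sized regions. Their median difference was -0.483 points, compared with -0.527 in the other mid-sized regions and 0.592 over all regions. The median standard error was 6.26 points in dense regions, 14.4 in other mid-sized regions and 24.0 over all.

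The groups did not overlap in cover in 30 dense regions (4.62%), with TCPOBOP higher in 7 and lower in 23, against 3.45% of all regions tested (1.8% more and 1.65% less). In the other mid-sized regions 189 (4.06%) did not overlap, 90 with more and 99 with less. These counts carry no test. Regions with islands in only 2 livers are among all regions tested and cannot separate, because both groups then hold zeros. That lowers the 3.45%, so the other mid-sized regions are the closer comparison. With 3 and 4 livers some regions separate by chance alone. All regions come from the same 7 livers, so the 7 and the 23 are not independent results. Without both livers numbered 2 the count was 123, of which 54 had more cover with TCPOBOP. Fewer livers make separation easier, and no share over all regions is given for that setting. The 123 can therefore not be set against the 30.

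**Figure D5:**
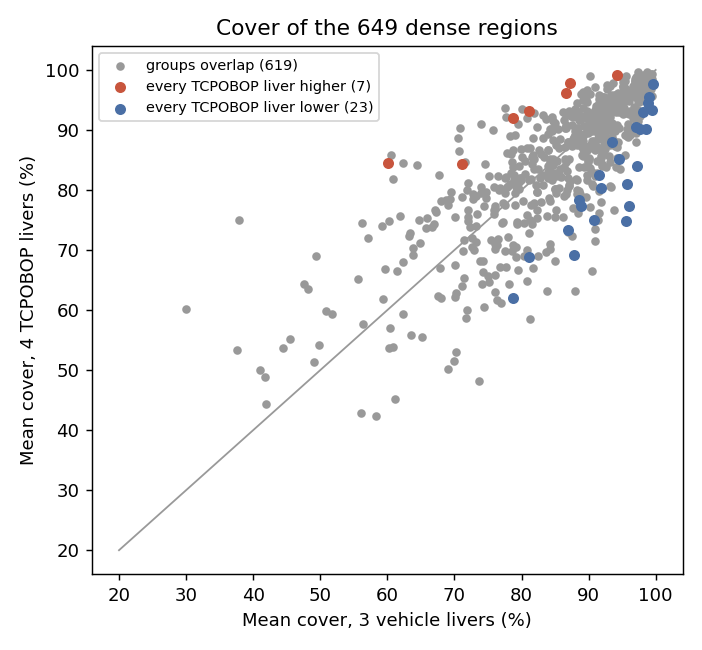
Mean cover (% of region length) of each of the 649 dense regions in 4 TCPOBOP livers against 3 vehicle livers, with the line of equal cover. In 7 regions every TCPOBOP liver was higher (red) and in 23 every one was lower (blue), and 619 overlapped (grey). No test was made of these counts, and 4.06% of the other mid-sized regions did not overlap either.

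The 5 dense regions with the lowest limma p all had an adjusted p of 1, so the differences below are values and not calls. They were picked by that p from all dense regions. Separate groups and a difference that holds when a liver is left out thus follow in part from the choice. The region chr3:72844801-72878000 was covered at 97.6%, 94.0% and 96.4% with vehicle and at 77.1%, 79.5%, 74.7% and 78.3% with TCPOBOP. The difference was -18.6 ± 6.78 points (SE of the limma fit). That SE draws on the variance of other regions and is not the spread of these livers. Their SD was 1.84 points with vehicle and 2.06 with TCPOBOP, and choosing by low p favours a small SD. Leaving out any 1 liver gave -19.6 to -17.7 points. The region chr19:4969201-5022800 was covered at 93.3%, 97.8% and 95.5% with vehicle and at 69.4%, 79.1%, 72.4% and 78.4% with TCPOBOP, a difference of -20.7 points. Both regions held 1 island in every liver, and it was shorter in each of the 4 TCPOBOP livers than in any vehicle liver.

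At chr9:40621201-40706800 cover was 76.2%, 94.4% and 91.1% with vehicle and 99.5%, 96.7%, 97.7% and 97.7% with TCPOBOP. That difference of 10.7 points rested in part on vehicle liver 1 and was 5.14 without it. At chr9:116113201-116245600 cover was 94.9%, 95.8% and 96.4% with vehicle and 72.8%, 89.7%, 68.3% and 93.1% with TCPOBOP, a difference of -14.7 points carried by TCPOBOP livers 1 and 3. At chr17:27342401-27399200 cover was 78.9%, 100% and 91.5% with vehicle and 95.8% to 100% with TCPOBOP. Its groups overlapped, and the difference of 8.80 points was 3.17 without vehicle liver 1 and 13.7 without vehicle liver 2.

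No difference was detected between treatments in where islands lay inside the dense regions. By the choice, all of these regions were dense in every liver of both groups, and regions dense in a single group were not among them. The Jaccard index, the base pairs shared by 2 livers over those in either, averaged 0.858 within groups and 0.860 between groups (difference -0.00238, one-sided exact permutation p = 0.686). Pairs ran from 0.845, vehicle liver 1 with TCPOBOP liver 2, to 0.879, vehicle liver 2 with TCPOBOP liver 2.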

How the data were processed

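H3K27me3 ChIP-seq was measured in 7 livers, 3 vehicle and 4 TCPOBOP. Per the submitters' processing notes, Bowtie2 2.3.2, SICER 1.1 and mm9 were used. The authors deposited 1 list of islands per liver with a score for each island, not pooled. Per the list names, windows were 400 bp, gaps up to 2400 bp were bridged and the E-value was 100. Use of an input control and the handling of duplicate reads are not given in the sources used here, and the lists give no read number, so depth per sample is unknown. The 122262 islands of the 7 lists were merged with Python 3.11.15 and NumPy 2.4.6.

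The dense regions and all comparisons were chosen with earlier results of these data known. Each liver gave 1 value per measure, compared by exact permutation over all 35 splits, with 95% intervals by inverting the test (SciPy 1.17.1). Cover of single regions was fitted with limma 3.58.1 (R 4.3.3; trend and robust variance, no block) in 13988 regions with an island in at least 2 livers and a cover not equal in all; tested on simulated data, the fit recovered the size of simulated losses but called none after adjustment, even large ones. Regions named were the 10 densest, the 3 just inside and 3 just outside the limit, the 5 with the lowest limma p, the 3 widest and the 3 with the largest SD of cover; 3 with a density pattern of their own were added after their values were seen. Alternatives were each liver left out, a replicate block, a stricter score, wider joining, other percentiles, lengths and overlaps, and other limma settings. A planned count of genes in the regions was not run and no sequence is shown, since neither an mm9 annotation nor an mm9 genome was used here and the RefSeq tables at hand are in a later build.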

Additional observations from a re-analysis of the deposited data

Results flagged for a closer look

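Of 31 measures examined in the 4 TCPOBOP livers for a single liver far from the other 3, 3 stood out. The limit used flags about 1 in 20 groups by chance, but that rate does not hold for a measure with a ceiling of 100%. On chromosome 8 from 125244801 to 125304000, TCPOBOP liver 4 had 79.1% of the region under islands, and the other 3 had 89.2% to 91.2%. On chromosome 17 from 27342401 to 27399200, TCPOBOP liver 1 had 95.8% and the other 3 had 100%. On chromosome 10 from 21998401 to 22033200, TCPOBOP liver 4 had 98.9% and the other 3 had 100%. In the last 2 regions the other 3 livers sit at the ceiling, so any departure stands out, and the last is a difference of a single window. Vehicle livers number 3 and could not be examined this way.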

How the results depend on the processing

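Of 149 recomputed values, 127 kept their direction and their side of the threshold or stayed within 1.5 times a count, 2 passed a threshold that the reported value missed, 11 counts moved and 9 differences changed sign; the cause was not tested. The exact tests with a liver left out (15 or 20 splits, smallest p 0.0667 or 0.1) could not pass 0.05. Nor could those without both livers numbered 2 (10 splits) or with the block (8 splits). For all of these only the direction is informative. The adjusted limma p, by which the regions of lowest limma p and the counts of adjusted calls were judged, also had little room to change side. The 127 is therefore not a measure of stability. Leaving out 1 liver gave -1.08 to 0.826 points for cover of the dense regions, -2.65 to 2.66 for their excess over other mid-sized regions, and -0.00484 to 0.00191 for the Jaccard difference, and -1.73 to -0.802 points for the widest-island share; without both livers numbered 2, chosen after seeing that they stand apart, the first 2 were 0.259 and 1.03. With a stricter score, which gave a set of 544 dense regions chosen anew, islands per region differed by 0.0732. The widest-island share in that set differed by -1.48 points (exact permutation p = 0.0286 for each). Neither measure was computed for the other mid-sized regions at that setting. The number of dense regions was 231 at the 90th percentile and 1477 at the 50th, and 680 to 717 when chosen on 6 lists. Regions with an unadjusted limma p under 0.05 numbered 4 without trend and robust variance and 12 to 26 with a liver left out, 26 without vehicle liver 2. Regions without overlap numbered 44 to 83 with a liver left out, where fewer livers make separation easier. They numbered 71, 83 and 75 without vehicle liver 1, 2 and 3, and 53, 53 and 49 without TCPOBOP liver 2, 3 and 4. Without both numbered 2 there were 123. No share over all regions is given for these settings, so neither the limma counts nor the overlap counts can be read as particular to dense regions.

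Replicate numbers are not said to pair animals. Deviations of same-numbered livers correlated at 0.0269, 0.278 and 0.0693 over all fitted regions, and at 0.104, 0.340 and 0.204 over the dense regions, and vehicle liver 1 correlated best with TCPOBOP liver 3. The limma fit uses all regions, so the numbers were not taken as pairs in it. The exact tests use the dense regions, where these correlations were higher, and were not paired either. That choice was made with both sets of correlations in view. With a replicate block, which leaves out TCPOBOP liver 4 and cannot give a p below 0.25, the cover difference was -0.581 points (exact p = 0.5), islands per region 0.0894 (exact p = 0.25), and 15 regions had an unadjusted limma p under 0.05, against 16 without the block. No share over all regions is given for the fit with the block. Counts of gene start sites, and their alternative under islands, were not run. Depth is unknown, and scores were not compared between groups.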
